A study of Mus musculus with 16 samples.

Results

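The genes described here remove superoxide and peroxides, carry reducing power through thioredoxin and glutathione, or regulate those systems through the transcription factor Nrf2, and the rod-derived thioredoxin-like genes Nxnl1 and Nxnl2 are counted with them. The 54 members were taken by symbol from the deposited table of the spaceflight comparison, and all 54 were found among its 25905 genes. Right-eye retinas of 8 spaceflight and 8 ground control mice were sequenced as 16 stranded RNA-Seq libraries, with 100 ng of RNA as input for each. All mice were male wild type C57BL/6, 10 weeks old by the labels. The authors give this as the age of the mice that were flown, so that the spaceflight mice were older when their eyes were taken. The spaceflight mice were kept in orbit aboard the International Space Station for 35 days, and their eyes were taken after return to Earth. The ground control mice lived in the same housing hardware with matched temperature and carbon dioxide and ate the same food. The comparison addresses how gene expression in the retina differs after spaceflight.

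Photoreceptors use much oxygen and are packed with polyunsaturated lipid, so that the retina is known as a tissue under constant oxidative load. Superoxide dismutases turn superoxide into hydrogen peroxide, which catalase, the glutathione peroxidases and the peroxiredoxins then remove. Thioredoxin and glutathione return the oxidized enzymes to their reduced form with electrons from NADPH, and Nrf2 switches on many of these genes once it is released from Keap1.

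Of the 54 members, 44 had a DESeq2 adjusted p-value and are called tested. Among these, Mafg rose in spaceflight and Nxnl1 fell, at the adjusted p-value threshold of 0.1. Thus 1 of 44 members was higher, beside 2.68% of all 10669 tested genes, and 1 of 44 was lower, beside 2.94%. In either direction the background was 5.62%. Counts in each list below are to be read beside that share. In lists this short, 0 past the threshold does not show that the genes were unchanged. Another 4 members had an unadjusted p-value under 0.05 (Nxnl2, Cat, Gsto1 and Mt1), which with Mafg and Nxnl1 makes 6 of 44, or 13.6%, beside 14.8% of all tested genes. The median log2 fold-change of the members was -0.04, against -0.0059 over all tested genes, and 28 of the 44 estimates (63.6%) lay below 0, against 52.2%. The plot of changes by role shows each estimate with its interval. For 19 of 44 members the whole 95% interval lay within a 1.2-fold change in either direction, a share of 43.2% against 53.1% of all tested genes. The median standard error was 0.10 in the members and 0.08 over all tested genes.

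**Figure D1:**
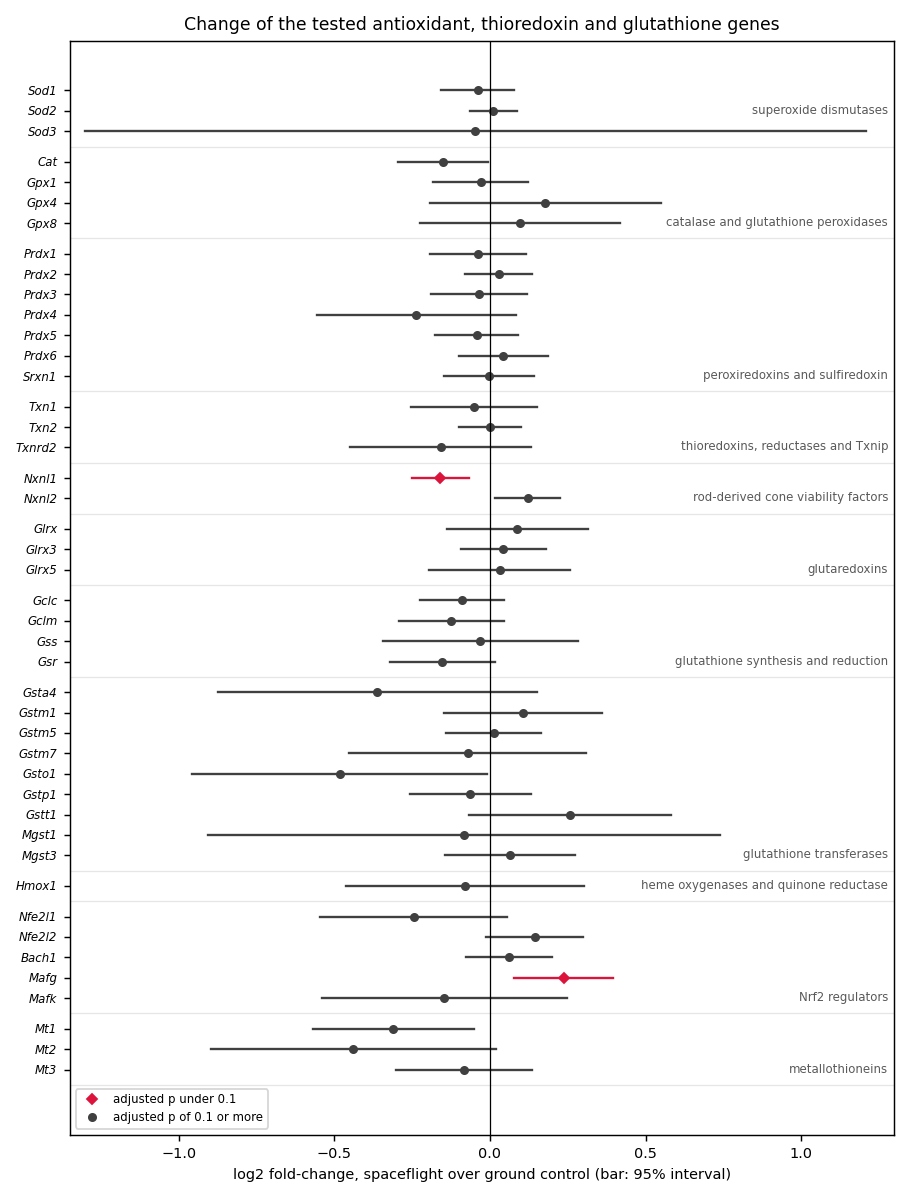
Log2 fold-change between spaceflight and ground control, positive where spaceflight is higher (horizontal axis), for each of the 44 tested members, grouped by role, with its 95% interval as a bar. Red diamonds mark the members with an adjusted p-value under 0.1, Nxnl1 on the lower side and Mafg on the higher, and the widest bar is that of Sod3.

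Values of single mice are not analysed here, because the deposited columns of counts carry laboratory codes that match no mouse. The level of a gene is therefore its mean normalized count over all 16 libraries, the error of a change is its deposited standard error, and whether the 2 groups of mice overlap is not shown. Fewer cells of a type and less RNA per cell cannot be told apart in bulk retina. Of the markers of the labelled tissue, all 10 rod markers and 7 of 9 cone markers were tested. The untested Pde6c (mean normalized count 0.07) and Gngt2 (4.02) were each counted over 2 transcript entries, and their low counts are not read as expression. Erythrocyte markers summed to a mean normalized count of 12.5, and 0 of the 5 in the table were tested. Alas2 was listed at 0 over 2 transcript entries and Hbb-b2 was absent, so that the amount of blood is not read from this sum.

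Nxnl1 encodes rod-derived cone viability factor, a protein of the thioredoxin fold that rods make and that is known for keeping cones alive. The gene gives a short secreted form and a longer thioredoxin-like form, and its reads were counted as 1 transcript entry, so that the forms are not separated. Nxnl1 had the highest mean normalized count of all members, 2267. Its level was 10.5% lower in spaceflight, a log2 fold-change of -0.16 (standard error 0.05, 95% interval -0.25 to -0.07, n = 8 per group, DESeq2 adjusted p = 0.0219). The call was lost at an adjusted p-value of 0.01 and when the change had to exceed 1.1-fold, where the adjusted p was 1.00.

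Nxnl2, the paralog whose product also supports photoreceptors, had a mean normalized count of 844. Its estimate was on the other side of 0, with a log2 fold-change of 0.12 (standard error 0.05, 95% interval 0.02 to 0.23), an unadjusted p of 0.0227 and a DESeq2 adjusted p of 0.224, so that it did not pass. The intervals of Nxnl1 and Nxnl2 do not overlap, and the difference between the paralogs was not tested. Per kilobase of transcript the levels were 831 for Nxnl1 and 723 for Nxnl2, close to each other and above 96.2% and 95.4% of tested genes.

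Markers of rods and cones also passed the test, in both directions. Of 10 rod markers tested, 1 was higher, beside 2.68% of all tested genes, and 2 were lower, beside 2.94%. Sag, the rod arrestin gene, fell with a log2 fold-change of -0.66 (DESeq2 adjusted p = 3.58e-28) and Pde6b, a rod phosphodiesterase subunit, with -0.14 (adjusted p = 0.0872), whereas Rp1, of the outer segment axoneme, rose with 0.15 (adjusted p = 0.00864). Of 7 cone markers tested, 0 were higher and 1 was lower, the cone arrestin gene Arr3, with -0.31 (adjusted p = 5.45e-06). The median was -0.02 over the rod markers and 0.07 over the cone markers. Their part in the change of Nxnl1 was not tested.

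Mafg encodes a small Maf protein, which has no activation domain of its own and pairs with Nrf2 or with the repressor Bach1 on antioxidant response elements. Its mean normalized count was 184. Its level was 17.8% higher in spaceflight, a log2 fold-change of 0.24 (standard error 0.08, 95% interval 0.08 to 0.39, n = 8 per group, DESeq2 adjusted p = 0.0729). The call was lost at an adjusted p-value of 0.05, and when all 19668 genes that had a p-value entered the adjustment, where the adjusted p was 0.128. It was also lost when the change had to exceed 1.1-fold, with an adjusted p of 1.00. Once a trend with GC content and transcript length was taken off, the log2 fold-change was 0.27 and the adjusted p 0.0282.

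The promoters of both genes that passed are printed, with letters chosen for each gene that are known to be bound by retinal or stress-response factors. Each is the stretch from 250 bases before to 50 after the start of the gene, 5′ to 3′ on the strand of the gene, from RefSeq on GRCm38.p6. For Nxnl1 (chr8:71566600-71566899, minus strand) the capitals mark the core bound by CRX, a homeodomain factor of photoreceptors. For Mafg (chr11:120633498-120633797, minus strand) they mark the core of the antioxidant response element, read on the opposite strand.
Nxnl1: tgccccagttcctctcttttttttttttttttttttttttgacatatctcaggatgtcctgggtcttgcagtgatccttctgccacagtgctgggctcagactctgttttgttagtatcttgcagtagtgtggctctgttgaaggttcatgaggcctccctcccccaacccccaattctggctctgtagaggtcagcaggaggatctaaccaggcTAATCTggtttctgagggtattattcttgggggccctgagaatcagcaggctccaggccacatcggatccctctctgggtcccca
Mafg: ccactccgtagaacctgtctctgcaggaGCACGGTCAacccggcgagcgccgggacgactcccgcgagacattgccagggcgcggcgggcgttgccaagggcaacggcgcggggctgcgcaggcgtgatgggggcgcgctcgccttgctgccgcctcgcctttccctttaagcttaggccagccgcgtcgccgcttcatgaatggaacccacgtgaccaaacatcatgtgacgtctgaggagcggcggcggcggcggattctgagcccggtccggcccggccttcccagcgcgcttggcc

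The letters TAATCN were searched on both strands as the CRX core, and were found in 22.0% of all 32851 promoters. Some genes have several start sites, and counted by gene, at any start site, 24.6% of 27025 genes held them. A promoter was matched for 47 members, of which 6 held the letters at any start site (Nxnl1, Nxnl2, Sod2, Mgst1, Glrx2 and Hmox2). The letters TGACNNNGC, the antioxidant response element core, stood in 12.4% of all promoters and, at any start site, in 14.0% of genes and in 12 of the 47 members, namely Gclm, Gstm5, Gstm7, Mafg, Mafk, Mgst1, Mt2, Nfe2l2, Prdx1, Sod1, Srxn1 and Txnrd1. Apart from Mafg, none of the tested members with these letters passed. No promoter was matched for Gclc, Gsr, Gsta4, Gstt2, Hmox1, Prdx6 and Sod3, and sequence outside these windows was not searched. A gene that is not named here may therefore still have such a site. Letters that match are a description of the sequence, and binding was not measured.

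The other regulators of the Nrf2 system did not pass. Nfe2l2, which encodes Nrf2 itself, had a log2 fold-change of 0.14 (95% interval -0.01 to 0.30, DESeq2 adjusted p = 0.397), with a mean normalized count of 302. Bach1, the repressor that competes for small Maf partners, had 0.06 (-0.08 to 0.20), and the second small Maf gene, Mafk, had -0.15 (-0.54 to 0.25), with a mean normalized count of only 35.2. Nfe2l1, a relative of Nrf2, had -0.25, and its level is uncertain because its reads were counted over 6 transcript entries. Keap1, the adaptor that sends Nrf2 to degradation, was not tested, at a mean normalized count of 21.4 over 4 entries. Of the enzymes that Nrf2 induces, Hmox1, which breaks down heme, had a log2 fold-change of -0.08 (-0.46 to 0.30), and its mean normalized count was 30.8. The quinone reductase gene Nqo1 was too low to be tested (21.5).

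Among the superoxide dismutases, 0 of 3 passed, beside 5.62% of all tested genes. Sod1, the cytosolic copper and zinc enzyme, was the most abundant member per length, with 1358 normalized counts per kilobase, above 97.9% of tested genes. Its log2 fold-change was -0.04 (standard error 0.06, 95% interval -0.16 to 0.08, DESeq2 adjusted p = 0.832). Sod2, the manganese enzyme of mitochondria, was among the most tightly bounded members, with 0.01 (standard error 0.04, 95% interval -0.06 to 0.09). In percent, the interval of Sod2 runs from 4.37% lower to 6.10% higher. Sod3, the secreted enzyme, had the widest interval of all, with -0.05 (standard error 0.64, 95% interval -1.30 to 1.21, adjusted p = 0.986), and its mean normalized count was 112. A doubling of Sod3 lies within that interval, so that its change was not measurable here.

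**Figure D2:**
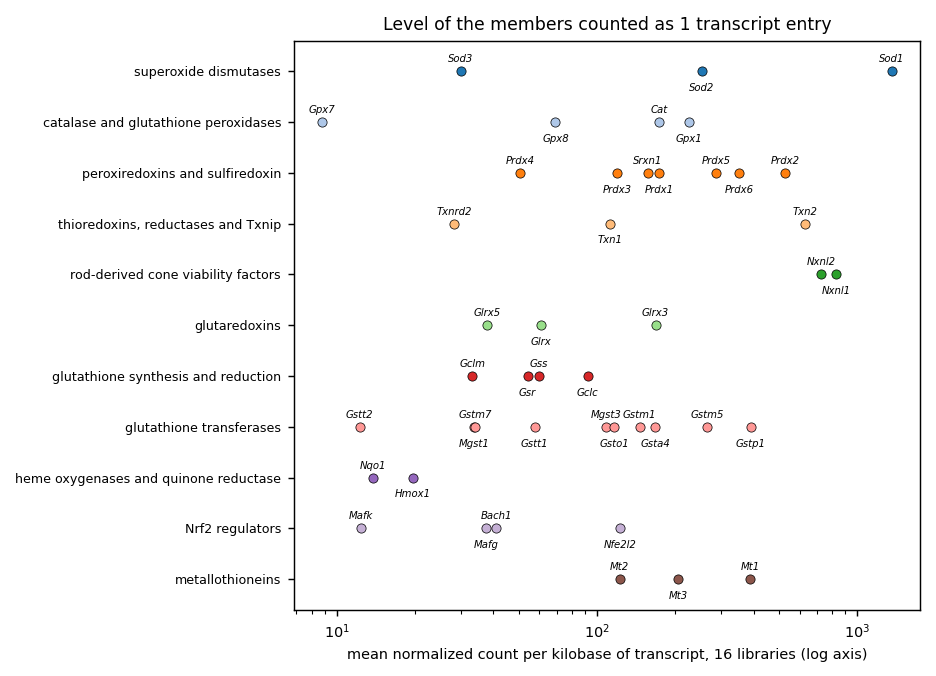
Mean normalized count per kilobase of transcript over the 16 libraries (horizontal log axis) for the 45 members counted as 1 transcript entry, in rows by role. Sod1 lies furthest right at 1358, followed by Nxnl1 and Nxnl2, and Gpx7 lies furthest left at 8.79.

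Catalase and the glutathione peroxidases remove hydrogen peroxide and lipid peroxides, and 0 of 4 tested passed, beside 5.62% of all tested genes. Cat had a mean normalized count of 451 and a log2 fold-change of -0.15 (95% interval -0.29 to -0.01), with an unadjusted p of 0.0403 and a DESeq2 adjusted p of 0.302. Gpx1, the cytosolic glutathione peroxidase, had -0.03 (-0.18 to 0.12). Gpx8, an enzyme of the endoplasmic reticulum, had 0.10 (-0.22 to 0.42). Gpx4, which reduces lipid hydroperoxides within membranes, had 0.18 (-0.19 to 0.55), with a mean normalized count of 28.6 over 2 transcript entries. Gpx7 was too low to be tested, and Gpx3, the secreted form, was listed at 0.

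All 7 peroxiredoxin and sulfiredoxin genes were tested and 0 passed, beside 5.62% of all tested genes. Peroxiredoxins reduce peroxides through a reactive cysteine, and sulfiredoxin (Srxn1) repairs that cysteine once it is overoxidized. Prdx2 was the most abundant of them per length, with 530 normalized counts per kilobase and a log2 fold-change of 0.03 (standard error 0.06, 95% interval -0.08 to 0.14, DESeq2 adjusted p = 0.879). Prdx6, which also acts on phospholipids, followed in level with 351 per kilobase and then Prdx5 with 286. The estimates of Prdx1, Prdx2, Prdx3, Prdx5, Prdx6 and Srxn1 lay between -0.04 and 0.04. Prdx4, the form of the endoplasmic reticulum, had the estimate farthest from 0, -0.24 (-0.56 to 0.08), and the lowest level, 50.7 per kilobase.

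Of the thioredoxin genes, Txn2, the mitochondrial thioredoxin, was the fourth most abundant member per length at 627 per kilobase. Its estimate was the closest to 0 of all, -0.0002 (standard error 0.05, 95% interval -0.10 to 0.10, DESeq2 adjusted p = 0.999). Txn1, the cytosolic thioredoxin, had -0.05 (-0.25 to 0.15) at 112 per kilobase, and the mitochondrial reductase Txnrd2 had -0.16 (-0.45 to 0.13) at 28.2 per kilobase. Txn1 and Prdx1 have processed pseudogenes elsewhere in the genome, so that their levels are uncertain. The cytosolic reductase Txnrd1 was not tested, and Txnrd3 and the thioredoxin inhibitor Txnip were listed at 0. The glutaredoxins, which use glutathione to reduce disulfides or to carry iron-sulfur clusters, had 0 of 3 passing, beside 5.62% of all tested genes. All 3 estimates were above 0, at 0.09 for Glrx, 0.04 for Glrx3 and 0.03 for Glrx5.

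Glutathione is made by glutamate-cysteine ligase (Gclc, the catalytic subunit, and Gclm, the modifier) and by glutathione synthetase (Gss), and glutathione reductase (Gsr) returns it to its reduced form. The estimates of all 4 genes were below 0, and 0 of 4 passed, beside 5.62% of all tested genes. The log2 fold-change was -0.09 (-0.22 to 0.05) for Gclc and -0.12 (-0.29 to 0.05) for Gclm. Gss had -0.03 (-0.34 to 0.28) and Gsr -0.15 (-0.32 to 0.02), the last with a DESeq2 adjusted p of 0.416. The median of the 4 was -0.11, and of all tested genes 52.2% had estimates below 0.

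Glutathione transferases attach glutathione to electrophiles, such as the aldehydes left by oxidized lipid. Of 9 tested, 0 passed, beside 5.62% of all tested genes. Gstp1 was the most abundant per length with 389 normalized counts per kilobase, followed by Gstm5 with 264. Gsto1, an omega class enzyme, had the estimate farthest from 0 of all tested members, -0.48 (standard error 0.24, 95% interval -0.96 to -0.01), with an unadjusted p of 0.0460 and a DESeq2 adjusted p of 0.325. Gsta4, which is known for acting on 4-hydroxynonenal, had -0.36 (-0.88 to 0.15). Estimates above 0 came from Gstt1 with 0.26 (-0.07 to 0.58), Gstm1 with 0.11, Mgst3 with 0.06 and Gstm5 with 0.01. Gstp1 had -0.06, Gstm7 -0.07 and the membrane-bound Mgst1 -0.08 (-0.91 to 0.74). Gstt2 was too low to be tested, at a mean normalized count of 16.8. Gstp1 and Gstp2 are near-identical copies, whose reads the counting could divide, so that their levels are uncertain. Gstp2 had a mean normalized count of 0.808. The mu class genes resemble each other less closely, and how far their reads were divided was not tested.

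Metallothioneins are small cysteine-rich proteins that bind zinc and copper and scavenge oxidants. All 3 were tested and all 3 estimates were below 0, beside 52.2% of all tested genes. Of these, 0 passed, beside 5.62%. Mt1 had a mean normalized count of 213 and a log2 fold-change of -0.31 (standard error 0.13, 95% interval -0.57 to -0.05), which is 19.4% lower, with an unadjusted p of 0.0188 and a DESeq2 adjusted p of 0.206. Mt2 had -0.44 (standard error 0.23, 95% interval -0.90 to 0.02, adjusted p = 0.371) at 62.5. Mt3, the form of neurons and glia, had -0.08 (standard error 0.11, 95% interval -0.30 to 0.13) at 110. Of 8 tested genes of a glucocorticoid response list 0 passed, beside 5.62% of all tested genes, and 1 had an unadjusted p under 0.05. The median log2 fold-change of that list was -0.06. The phosphatase gene Dusp1 had -0.23 (-0.41 to -0.06, unadjusted p = 0.00973, DESeq2 adjusted p = 0.142), and the most abundant gene, Klf9, had 0.04. The part of that response in the metallothionein values was not tested.

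The Mt1 and Mt2 promoters are shown for their metal response elements, the sites that the zinc sensor MTF1 is known to bind. The genes lie beside each other on chromosome 8, both on the plus strand, at chr8:94178839-94179138 for the Mt1 promoter and chr8:94172368-94172667 for that of Mt2 (RefSeq, GRCm38.p6). Capitals mark the core of the element, searched as TGCACNC and TGCGCNC on both strands. It was found 3 times in the Mt1 window and 4 times in that of Mt2.
Mt1: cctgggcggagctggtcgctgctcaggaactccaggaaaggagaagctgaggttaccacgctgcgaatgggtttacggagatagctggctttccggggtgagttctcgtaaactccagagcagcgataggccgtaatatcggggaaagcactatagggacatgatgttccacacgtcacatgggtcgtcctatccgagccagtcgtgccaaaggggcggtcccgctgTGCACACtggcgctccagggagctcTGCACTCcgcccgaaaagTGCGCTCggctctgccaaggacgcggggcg
Mt2: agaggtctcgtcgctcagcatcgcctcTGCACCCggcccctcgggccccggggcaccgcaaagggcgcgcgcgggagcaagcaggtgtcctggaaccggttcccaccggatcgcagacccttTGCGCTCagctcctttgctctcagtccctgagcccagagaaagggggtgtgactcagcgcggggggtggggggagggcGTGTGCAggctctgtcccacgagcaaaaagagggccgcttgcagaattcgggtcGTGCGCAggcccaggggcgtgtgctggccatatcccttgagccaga

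At least 1 such core stood in 25.7% of all promoters and, at any start site, in 28.2% of genes and in 18 of the 47 members. The Mt3 window held 1, and the Nxnl1 and Mafg windows held 0. Whether these letters bear on the changes was not tested.

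The level of a member went with the number of transcript entries it was counted over. The deposited table of counts has a row for each RefSeq transcript, so that a gene with several transcripts has several entries. The 45 members with 1 entry had mean normalized counts of 11.3 to 2267, with a median of 176, and 42 of them were tested. The 9 members with 2 or more entries had 0 to 73.1, with a median of 1.08, and 2 of them were tested. Gpx3, Txnip and Txnrd3 were listed at 0, Glrx2 had 0.922, Hmox2 1.08 and Txnrd1 2.55. The plot of level by number of entries shows the separation.

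**Figure D3:**
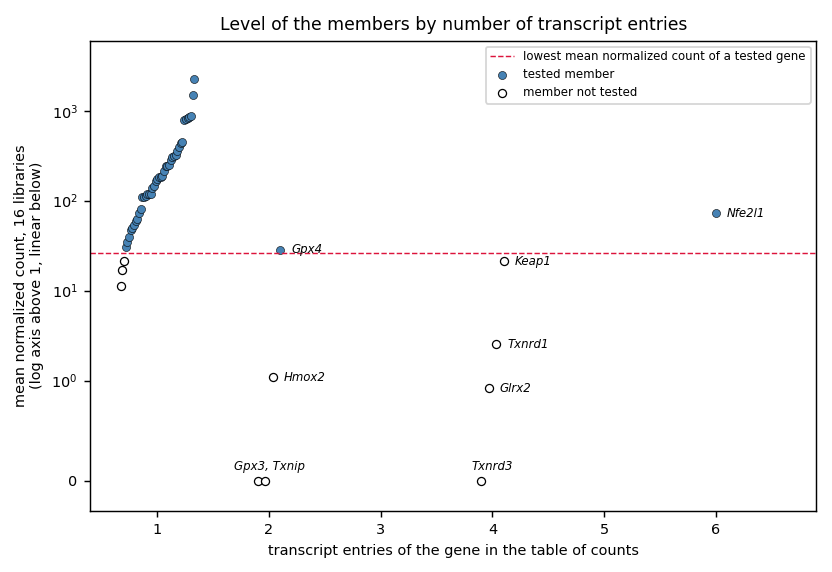
Mean normalized count over the 16 libraries (vertical axis, logarithmic above 1 and linear below) of the 54 members against the number of transcript entries of the gene, with filled points for tested members and points set apart sideways only to be seen. The dashed line is the lowest mean normalized count of any tested gene, 26.4, and of the 9 members with several entries only Gpx4 and Nfe2l1 lie above it.

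The same held over the whole table. Of 22086 genes with 1 entry, 45.4% were tested and 22.6% were listed at 0, whereas of 3794 genes with several entries 16.7% were tested and 32.7% were at 0. Some genes that every cell uses were also low there, with a mean normalized count of 0.142 for Psap, which has 6 entries, and 1.49 for Eif4g1, which has 2. Other genes with several entries were higher, with 48.7 for Aldoa (3 entries) and 991 for Glo1 (2 entries). Gapdh, with 1 entry, had 30899. A read that falls on several overlapping features is left out by HTSeq as ambiguous in its usual setting. Neither the setting used for these libraries nor how several entries were merged into 1 gene is given in the sources used here. Entries were matched to genes by symbol, and the part of the setting and the merging in the levels was not tested. The low values of Txnip, Txnrd1, Txnrd3, Gpx3, Gpx4, Hmox2, Glrx2, Nfe2l1 and Keap1 are therefore not read as their expression in the retina, and no fold-change is given for those listed at 0.

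The members also differed in precision. The spread between mice that a standard error implies was computed as a coefficient of variation within groups, with counting error taken off. DESeq2 in its usual fit draws the spread of a gene toward that of genes of like abundance. The values are therefore moderated, and ratios near 1 are partly set by the method. Its median over the members was 11.2%, and the median standard error was 1.03 times that of the 200 tested genes nearest in abundance. In 4 of 44 members the standard error was more than 2 times that of genes of like abundance (9.09%, against 2.32% of all tested genes). These were Sod3 (5.72 times, coefficient of variation 88.3%), Gsta4 (2.77 times, 35.5%), Gsto1 (2.42 times, 32.5%) and Mgst1 (2.28 times, 56.1%). Mt2 stood at 1.60 times with 29.8% and Mt1 at 1.57 times with 16.99%. In the plot of precision against level these genes lie above the band of genes of like abundance.

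**Figure D4:**
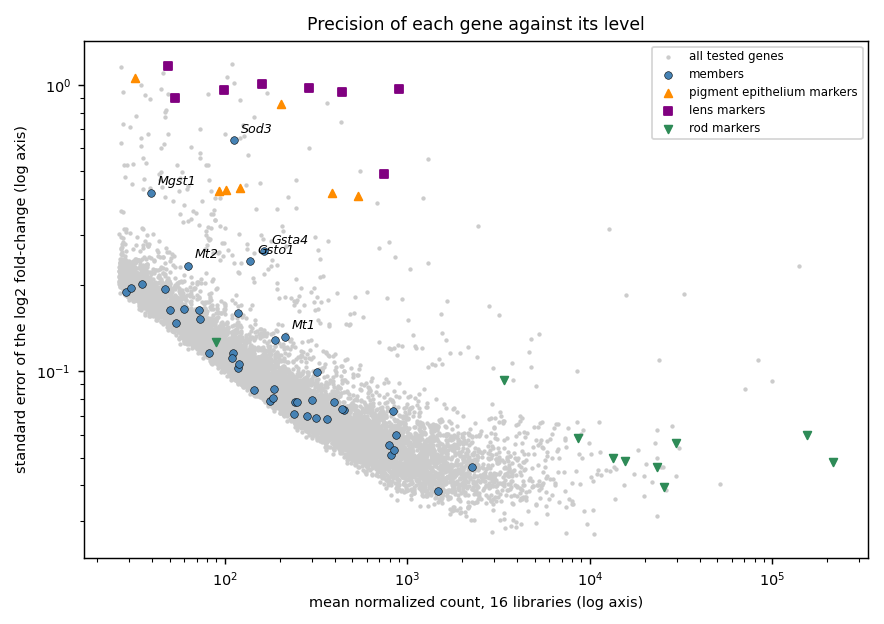
Standard error of the log2 fold-change (vertical log axis) against mean normalized count over the 16 libraries (horizontal log axis) for all 10669 tested genes in grey, the 44 tested members in blue, and markers of pigment epithelium, lens and rods. Sod3, Mgst1, Gsta4, Gsto1, Mt2 and Mt1 are named, and the pigment epithelium and lens markers all lie above the band of most genes.

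Such a spread was also found in markers of cells of the retina and of tissues next to it. Standard errors more than 2 times those of like genes were found for 1 of 10 rod markers, 2 of 7 cone markers, 2 of 9 Müller glia markers (Vim at 4.59 times and Apoe at 3.08 times) and 1 of 7 endothelium and pericyte markers, and for 0 of 6 microglia markers. All 7 tested pigment epithelium markers had a standard error more than 2 times that of like genes, with a median of 5.33 times and a median coefficient of variation of 58.5%. Their median log2 fold-change was -0.30, with 5 of 7 below 0, beside 52.2% of all tested genes. Tyrp1 and Mlana of the same list lay above 0 at 0.31 and 0.24. Of the 7, 0 passed, beside 5.62% of all tested genes. Of 10 listed, Rpe65 had a mean normalized count of 121, Ttr 540 and Rgr 386, whereas Best1 had 2.72. All 8 tested lens markers also exceeded 2 times, with a median of 9.90 times and a median coefficient of variation of 133%. All 8 lens estimates were below 0, beside 52.2% of all tested genes, with a median log2 fold-change of -1.13. Of the 8, 0 passed, beside 5.62% of all tested genes. The most abundant lens marker, Cryaa, had a mean normalized count of 898 and a log2 fold-change of -1.05 (DESeq2 adjusted p = 0.689). The part of these tissues in the values of Sod3, Mgst1, Gsta4, Gsto1, Mt1 and Mt2 was not tested, and their levels per mouse are not analysed here. Nxnl1 and Mafg had standard errors of 1.04 and 0.922 times those of like genes.

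Genes that work with the members were taken from 10 further lists. Of 133 in the table, 91 were tested, of which 2 were higher (beside 2.68% of all tested genes) and 1 was lower (beside 2.94%), with a median log2 fold-change of -0.03. Sesn2, which encodes a stress-induced sestrin that restrains mTORC1 and is tied to the repair of overoxidized peroxiredoxins, had a mean normalized count of 139. It fell by 26.7%, with a log2 fold-change of -0.45 (standard error 0.10, 95% interval -0.64 to -0.26, DESeq2 adjusted p = 0.000337). Tested for a change beyond 1.1-fold, its adjusted p was 0.207. Txndc16, a thioredoxin-fold protein of the endoplasmic reticulum, rose with a log2 fold-change of 0.17 (0.07 to 0.28, adjusted p = 0.0410, and 0.102 once the trend with GC content and length was taken off). Slc39a10, a zinc importer, rose with 0.19 (0.06 to 0.31, adjusted p = 0.0630, and 0.111 when every gene that had a p-value entered the adjustment).

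The other lists had 0 genes past the threshold, beside 5.62% of all tested genes. Of 12 tested further Nrf2 targets, 3 had estimates below 0, beside 52.2% of all tested genes, and the median was 0.04. The most abundant was the ferritin heavy chain gene Fth1, with a mean normalized count of 2789 and a log2 fold-change of 0.13 (0.03 to 0.22, DESeq2 adjusted p = 0.147), and then the autophagy receptor gene Sqstm1, with 1388 and -0.09 (adjusted p = 0.256). Of 9 tested genes that supply NADPH, 7 had estimates below 0, beside the same 52.2%, and the median was -0.05. There the most abundant were the transketolase gene Tkt, with 2143 and -0.07, and the malic enzyme gene Me1, with 1085 and -0.13 (adjusted p = 0.215). Glutathione transport and turnover had 10 tested genes and a median of -0.02, led in level by the glyoxalase gene Glo1 with 991 and -0.05 and by Esd with 353 and 0.06.

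Among the sources of oxidants only the nitric oxide synthase genes Nos1 and Nos3 were tested, of 12 listed. Nos1, the neuronal form, had a log2 fold-change of -0.38 (-0.66 to -0.10, DESeq2 adjusted p = 0.132), with a mean normalized count of 96.5, and Nos3, the endothelial form, had -0.05 at 89.3. In the iron and copper list 9 genes were tested, with a median of -0.05, and the most abundant were the transferrin receptor gene Tfrc (1279, -0.09) and the transferrin gene Trf (795, -0.35). The standard error of Trf was 5.40 times that of like genes. In the zinc list the most abundant gene, the transporter Slc30a9, had 1100 and 0.01. The regulators of Nrf2 and its relatives were led by Gsk3b (3571, -0.04) and Cul3 (2300, -0.05), the selenoproteins by Sepw1 (1380, -0.07) and Selk (581, 0.04). The thioredoxin-fold proteins were led by Tmx4 (1372, -0.03) and Tmx1 (1066, 0.04), and the further glutathione transferases by Gstcd (220, -0.11) and Gstz1 (129, -0.18).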

How the data were processed

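Reads were trimmed with Trimmomatic, mapped with TopHat2 to NCBI mouse build 37.2 and counted with HTSeq, after which the authors compared the groups in DESeq2 1.22.2 (R 3.5.1). The signal per gene, deposited by the authors, averages, across the libraries, the counts divided by DESeq2 size factors. Also deposited are the log2 fold-change (positive where spaceflight is higher) with its standard error, the Wald score (their quotient) and p-values, raw and adjusted by the Benjamini-Hochberg method over genes past a filter on abundance. These columns are the authors' own comparison. The 32 columns of deposited counts match no sample label and were not used, so that edgeR was not run and depth per library is unknown. How the 32 columns relate to the 16 libraries is not given in the sources used here. The value of n = 8 per group is taken from the sample labels, and which columns entered the authors' fit was not checked. The p-values come from Wald tests of each change against its standard error.

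The 95% intervals are normal intervals around each deposited estimate. Length and GC content were matched for 97.0% of tested genes (GENCODE, GRCm38), and no coordinate was compared with build 37.2. Levels per kilobase use these lengths. The trend was a robust fit on splines with 4 degrees of freedom each. The alternatives were adjusted p-values of 0.05 and 0.01, adjustment over every gene that had a p-value, only genes with a mean normalized count of at least 100, removal of the trend, and a test for a change above 1.1-fold. Members and lists were chosen with earlier results of these data known. Named in full are members past the threshold or with an unadjusted p under 0.05, the 5 of highest level per kilobase and the one with the widest interval, and, of other lists, genes past the threshold and the 2 most abundant. Others, such as Sod2, Prdx4 and Trf, were chosen after their values were seen. Whether counting used strand is not given in the sources used here. Scripts ran in Python 3.11.15 (numpy 2.4.6, pandas 2.3.3, scipy 1.17.1) and R 4.3.3, and were tested on simulated data.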

Additional observations from a re-analysis of the deposited data

How the results depend on the processing

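Each result rests on 1 deposited comparison. Of the members, 1 higher (Mafg) and 1 lower (Nxnl1) remained once the trend with GC content and length was taken off and with a minimum mean normalized count of 100. The number of higher members was 0 at adjusted p-values of 0.05 and 0.01, when every gene that had a p-value entered the adjustment, and for a change larger than 1.1-fold. The number of lower members was 0 at 0.01 and for a change larger than 1.1-fold. Of the other genes of the pathway, 2 were higher, which became 1 at 0.05, 1 with adjustment over all genes, 1 with the trend removed, 0 at 0.01 and 0 for a change larger than 1.1-fold. The lower count of 1 became 2 with a minimum count of 100, where Txndc5 joined Sesn2, and 0 for a change larger than 1.1-fold. Over all genes these settings gave 44 to 589 calls against 600, with 44 for a change larger than 1.1-fold, 220 at 0.01, 394 at 0.05 and 431 with adjustment over all genes. Of the single genes in the alternatives, 40 values kept their side of the threshold, 14 lost it and 0 changed direction. The 40 include every value of Cat, Nxnl2, Gsto1 and Mt1, which had not passed and could not pass at a stricter threshold. All 14 losses were in genes that had passed, namely Nxnl1, Mafg, Txndc16, Sesn2 and Slc39a10. The count of 40 is therefore no measure of how firm the calls are. No paired analysis was possible because the columns of counts carry no sample or replicate number. For the same reason edgeR in place of DESeq2, scaling by the trimmed mean of M values, and fits without each replicate were not run.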
